A study of Mus musculus with 32 samples.

Results

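Zfp352 is a zinc finger gene of mouse chromosome 4 and Zfp353-ps is a processed copy of it on chromosome 8, and these 2 of the 55385 genes in the RNA-seq tables were taken by name because earlier results of the same data had shown both to move with the treatments. Their RNA levels are therefore given as a description, with fitted changes and standard errors but without p-values, and where a member is said to be called, this too describes its values and tests nothing. Zfp352 is among the genes that the mouse embryo transcribes when its own genome is first switched on, a step called zygotic genome activation (ZGA), and its RNA is a familiar mark of the 2-cell stage. The transcription factor DUX, which is itself made in a short burst around the first cleavage, is known to activate Zfp352 together with the Zscan4, Tcstv and Usp17l families. A processed copy arises when a spliced RNA is reverse-transcribed and inserted elsewhere in the genome, and such copies often lack what they need to be transcribed.

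All embryos were wild-type and came from oocytes and sperm of B6D2F1/J mice of 6 to 8 weeks, fertilized and cultured in vitro. In the first experiment, embryos were kept from 4 to 20 h post fertilization (hpi) in 10 µM A-485, an inhibitor of the acetyltransferases CBP and p300, or in DMSO, and total RNA was sequenced at the zygote stage and from 2-cell embryos collected early and late. In the second, late 2-cell embryos had been kept from 8 to 28 hpi in 50 nM TSA, an inhibitor of histone deacetylases, or in DMSO. Each of these 8 RNA-seq groups had 2 libraries. The labels hold a pair of late 2-cell DMSO groups, which were assigned to the A-485 and the TSA experiment by the form of their titles alone. By the same form, the early 2-cell titles resemble those of the TSA experiment, and the zygote titles those of the late 2-cell A-485 groups. The labels do not say whether libraries with different title forms were made together. A difference between such sets therefore cannot be told apart from stage wherever early 2-cell is compared with zygote or late 2-cell. Open chromatin was measured by ATAC-seq at the late 1-cell stage and at early 2-cell, each with A-485 or DMSO. The study places early 2-cell embryos at 20 hpi. Zygote and late 1-cell samples were thus collected before the A-485 window ended, after a shorter exposure. Because every group was treated in culture and each library holds several lysed embryos, fewer transcribing cells and less RNA per cell cannot be told apart. The labels do not say whether replicates were separate fertilizations, so the spread between them may be partly technical.

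The libraries held between 13206163 and 32585987 expected counts, the lowest being a late 2-cell A-485-treated library. All 7 oocyte and embryo markers (Zp3, Bmp15, Gdf9, Nlrp5, Ooep, Oosp1 and Padi6) were at 1 FPKM or more in all 16 libraries. The 7 cumulus cell markers summed to between 0.90 and 6.45 FPKM and the 5 fibroblast markers to at most 2.64 FPKM, with Lum at 0 throughout. The 6 sperm markers summed to between 13.2 and 18.9 FPKM in the zygote libraries and to between 1.21 and 8.44 FPKM in the others. The mitochondrially encoded genes took 5.35% and 5.43% of the counts in late 2-cell A-485-treated embryos and 2.35% and 2.45% in their DMSO controls.

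Zfp352 (ENSMUSG00000070902.5) lies on the plus strand at chr4:90218820-90225702 of GRCm38, in the GENCODE M21 annotation. Its longer transcript of 2276 bases has a first exon of 156 bases, an intron of 4607 bases and a second exon of 2120 bases that holds the whole coding sequence, chr4:90223625-90225280. A shorter annotated transcript of 1656 bases holds the coding bases alone. Zfp353-ps (ENSMUSG00000095057.1) is annotated as a processed pseudogene of 1650 bases on the minus strand, chr8:42081460-42083109. Aligned to Zfp352 with its intron removed, the chromosome 8 locus matched without a break from 1790 bases before the Zfp352 start to base 1989 of the transcript, at 94.6% identity over 3786 columns. Exon 1 and exon 2 stood directly next to each other in the copy, so the intron of 4607 bases was absent from it.

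The likeness did not begin at the start of the RNA. A further stretch, from 2593 to 1965 bases before the Zfp352 start, matched at 94.2% identity. The base of the copy that lines up with the first base of Zfp352 is chr8:42083313, which is 204 bases before the annotated start of Zfp353-ps. The annotated copy thus begins inside the coding sequence, while the bases that match exon 1 and the promoter of Zfp352 lie outside its annotation. The 250 bases before the Zfp352 start are given from the RefSeq promoter table (GRCm38.p6), which matched 1 of the 2 genes. The stretch of the chromosome 8 ATAC peak that lines up with them is given from the GRCm38 genome. They are shown because both genes share this unusual start region. The early 2-cell peaks described further on cover it, and the late 1-cell peak of the copy covers part of it. Capitals mark bases that differ between the 2 stretches or that the other lacks.
Zfp352, plus strand, chr4:90218570-90218819: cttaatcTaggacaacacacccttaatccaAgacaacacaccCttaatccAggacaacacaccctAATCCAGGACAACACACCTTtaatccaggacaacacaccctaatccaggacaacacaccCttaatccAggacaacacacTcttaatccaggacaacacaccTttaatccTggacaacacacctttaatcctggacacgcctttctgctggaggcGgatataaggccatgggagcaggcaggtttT
Zfp353-ps, minus strand, chr8:42083314-42083544: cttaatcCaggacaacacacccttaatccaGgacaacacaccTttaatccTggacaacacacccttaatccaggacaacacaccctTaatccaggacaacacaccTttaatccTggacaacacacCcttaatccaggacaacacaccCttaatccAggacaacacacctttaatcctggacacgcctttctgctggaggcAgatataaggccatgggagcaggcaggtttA
Both stretches were built of a short unit repeated head to tail, followed by a TATA-like run close to the start. Of the aligned columns in this window, 219 of 251 were identical, 11 were substitutions and 21 were gaps, since the copy had 231 bases for the 250 of Zfp352. The letters GGACAACACACC, which with 1 overlapping run were the commonest 12 letters in the Zfp352 stretch, were searched on both strands. They occurred 7 times in the 250 bases before the Zfp352 start and 9 times in the same length before the matching base of the copy, and in 1 of the 32851 RefSeq promoters (0.00304%), that of Zfp352. The letters TAATCC, the core that many OTX- and OBOX-type homeodomain proteins read, occurred 9 times before Zfp352 and 10 times before the copy, many of them inside the repeated unit. They occurred at least once in 6.25% of all promoters, and 1 promoter, that of Zfp352 itself, held 9 or more. The letters TATAA occurred once in each, with the first base of the match 28 bases before the Zfp352 start, and in 22.8% of all promoters. These counts describe letters and not bound sites.

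**Figure D1:**
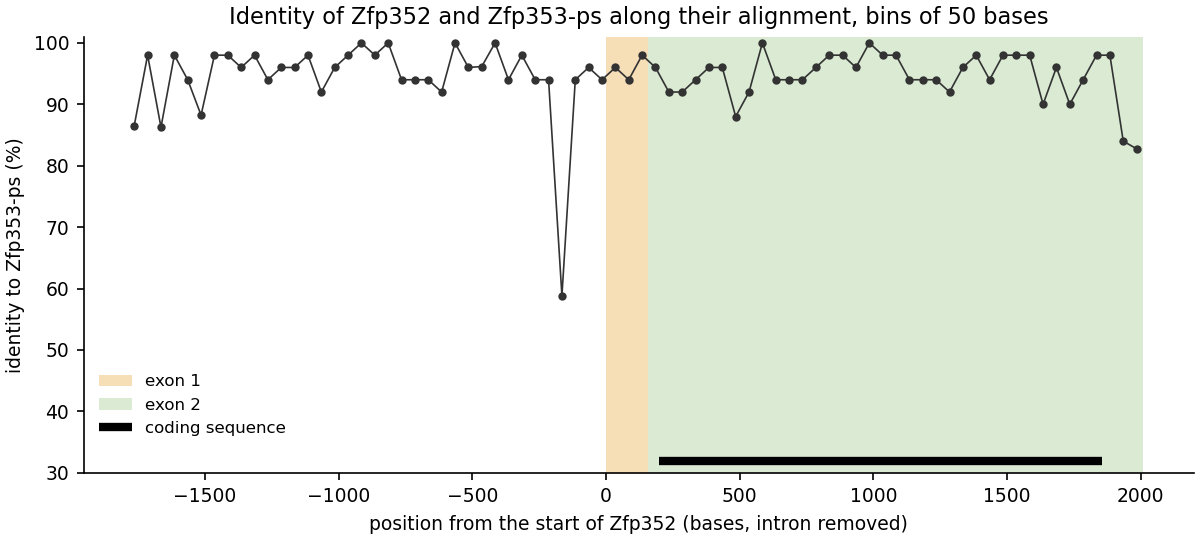
Identity of Zfp352 and the chromosome 8 locus of Zfp353-ps (y axis, percent of aligned columns) in bins of 50 bases along their alignment (x axis, bases from the start of Zfp352 with the intron removed), with exon 1, exon 2 and the coding sequence marked. Identity stayed high through the promoter, both exons and the coding sequence, and the lowest bin, at 58.8%, is in the promoter, where the copy is shorter.

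The coding sequence of Zfp352 was kept in the copy at full length. All 1656 coding bases, stop included, aligned without a gap, with 81 substitutions (95.1% identity), against 95.5% in exon 1 and 97.6% in the 42 bases of exon 2 that come before the coding sequence. The first 90 coding bases are shown because the annotation calls the copy a pseudogene and its first difference falls in the start codon; capitals mark the differing bases.
Zfp352, plus strand, chr4:90223625-90223714: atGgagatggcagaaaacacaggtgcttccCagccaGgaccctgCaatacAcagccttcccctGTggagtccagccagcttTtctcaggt
Zfp353-ps, minus strand, chr8:42083026-42083115: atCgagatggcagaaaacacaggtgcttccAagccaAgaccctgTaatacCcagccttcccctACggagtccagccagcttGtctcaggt
Counting from the first base of the Zfp352 coding sequence, the first substitutions were G3C, C31A, G37A and C45T. G3C changes the ATG start codon, and the next ATG in the same frame, at the third codon, is present in both. Read in the frame of Zfp352, the copy held 551 codons before its first stop, the same number as Zfp352.

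Few windows of the length of a read were the same in both copies. Of the 1576 windows of 75 bases, the read length, in the annotated copy, 63 (4.00%) occurred without a mismatch in the Zfp352 transcript, and no transcript of any other annotated gene shared a window of that length with either. RSEM's posterior standard deviation of the expected count, which grows with the number of reads that fit more than 1 gene, was at most 1.38 counts over the 32 member values and 0 in 14 of them. The processed pseudogene Gm12633 (chr4:90359622-90361326, minus strand) is a more distant relative, with 81.9% identity to Zfp352 over 1698 columns, and begins 133920 bases beyond the end of Zfp352.

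In DMSO-treated embryos, Zfp352 went from near silence to one of its 2 highest levels within 1 cleavage. Its level was 0.83 and 1.07 FPKM in the zygote DMSO libraries, 122 and 112 FPKM at early 2-cell, and 60.2 and 60.0 FPKM in the late 2-cell DMSO libraries of the A-485 experiment. The 3 stages did not overlap. The other late 2-cell DMSO group was lower, at 36.4 and 47.4 FPKM, and early 2-cell was not fitted against it. The edgeR fit put the rise from zygote to early 2-cell at 7.01 on the log2 scale (SE 0.138) and the later change at -1.01 (SE 0.126). Over all tested genes, 11.2% were called up-regulated in the first of these steps and 8.92% down-regulated in the second, where a gene counted as called if its adjusted p was under 0.05, its fold change 2 or more and its mean 1 FPKM or more in one of the groups. Zfp352 was called in both steps, in the second only just, at 2.01-fold. Its call in the second step was lost without early 2-cell DMSO replicate 1, where the fitted change was -0.93, and without late 2-cell DMSO replicate 2, where it was -0.87. When libraries were scaled to their mitochondrially encoded genes instead of by TMM, the median of all genes was -1.45 in place of -0.12 and Zfp352 still rose by 5.68.

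Zfp353-ps was transcribed in the same window. It stood at 1.25 and 1.96 FPKM in zygotes, 43.3 and 43.6 FPKM at early 2-cell, and 15.7 and 12.9 FPKM at late 2-cell, again without overlap between stages. Its fitted rise was 4.84 (SE 0.204) and its later fall was 1.60 on the log2 scale (SE 0.173). The copy was therefore called in both steps as well. In the other late 2-cell DMSO group, which was not part of this fit, the copy was at 4.96 and 7.21 FPKM.

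The relation between gene and copy was not constant. In the zygote DMSO libraries the copy had the higher level per length, with 1.51 and 1.83 FPKM of Zfp353-ps for each FPKM of Zfp352. At early 2-cell the ratio was 0.356 and 0.388, and at late 2-cell 0.261 and 0.216 in one DMSO group and 0.136 and 0.152 in the other. The DMSO ratios of the 3 stages did not overlap, and the 2 DMSO groups of late 2-cell embryos did not overlap each other.

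**Figure D2:**
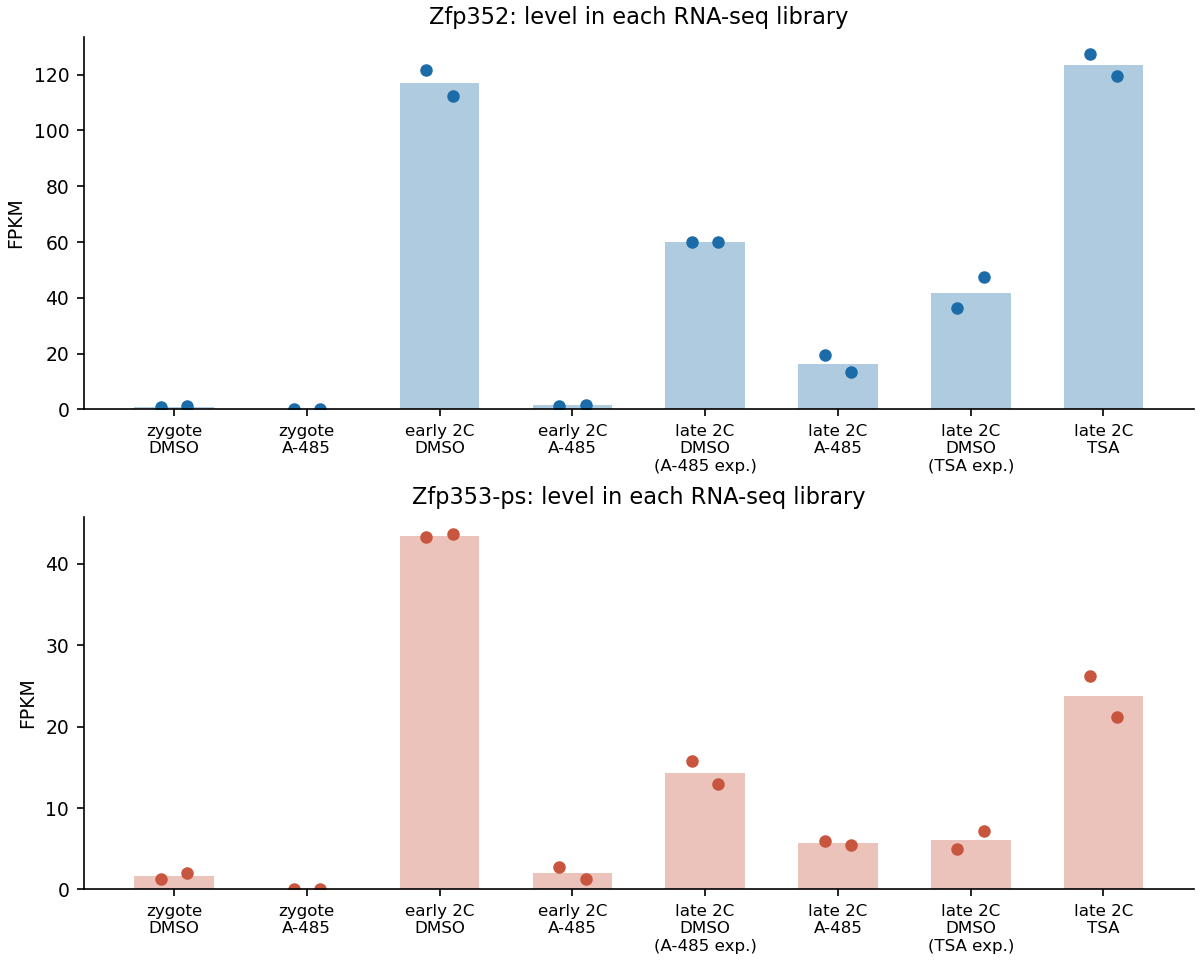
FPKM of Zfp352 (upper) and Zfp353-ps (lower) in the 16 RNA-seq libraries, grouped by stage and treatment (x axis); points are single libraries and bars are means of 2. Zfp352 was highest in early 2-cell DMSO and late 2-cell TSA embryos, which overlapped, and Zfp353-ps was highest in early 2-cell DMSO embryos at a mean of 43.4 FPKM.

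Over all 8 groups, Zfp352 ordered from a mean of 123 FPKM in late 2-cell TSA to 0.085 FPKM in zygote A-485 libraries. Only the first 2 groups in that order, late 2-cell TSA and early 2-cell DMSO (mean 117 FPKM), had overlapping libraries. The order of Zfp353-ps began with early 2-cell DMSO (43.4 FPKM) and late 2-cell TSA (23.7 FPKM), which were 19.7 FPKM apart and did not overlap. Late 2-cell DMSO of the TSA experiment (6.08 FPKM) and late 2-cell A-485 (5.73 FPKM) overlapped for the copy, as did early 2-cell A-485 (1.97 FPKM) and zygote DMSO (1.60 FPKM).

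Zygotes, the earliest stage with RNA libraries here, held traces of both RNAs. Zfp352 had 52 and 59 expected counts with DMSO and 0 and 11 with A-485, or 0 and 0.17 FPKM. Zfp353-ps had 55 and 83 expected counts with DMSO and 0 and 1 with A-485. Both A-485-treated libraries were below both DMSO libraries for each gene, and the first of them held no read of either. Summed over libraries, the A-485 to DMSO ratio of counts per total was 0.0915 for Zfp352 (exact 95% interval 0.0444 to 0.170) and 0.00669 for Zfp353-ps (0.000168 to 0.0379), where the intervals cover counting error only. A library at 0 allows up to 3 counts, or 0.0523 FPKM of Zfp352 and 0.0637 FPKM of Zfp353-ps here.

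The fitted change in zygotes was -3.41 (SE 0.911) for Zfp352, which was not called, and -6.89 (SE 0.896) for Zfp353-ps, which was called down-regulated, where 0.0657% of the tested genes were. Both values rest on few counts and on the prior count of the fit. That of Zfp352 was -8.84 without the A-485-treated library with 11 counts and -2.41 without the one at 0, and that of Zfp353-ps was -9.16 without the same library, which held 1 count of it, and -6.03 without the one at 0. When the counts of both copies were added into 1 feature, its change of -4.45 passed the thresholds, and with limma on log2(FPKM + 1) the call of Zfp353-ps was lost at -1.35.

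At early 2-cell, A-485-treated embryos held little of either RNA. Zfp352 was at 1.28 and 1.52 FPKM, against 122 and 112 FPKM with DMSO, and so was close to its level of 0.83 and 1.07 FPKM in DMSO zygotes. Zfp353-ps was at 2.7 and 1.23 FPKM, against 43.3 and 43.6 FPKM. For both genes the A-485 and DMSO libraries were far apart. The fitted changes were -6.46 (SE 0.129) for Zfp352, an 88.2-fold decrease, and -4.45 (SE 0.273) for Zfp353-ps, a 21.8-fold decrease. For the copy the change was -5.13 without A-485 replicate 1 and -3.96 without A-485 replicate 2. Both genes were called, where 7.9% of tested genes were called down-regulated and 0.402% up-regulated. Ordered by fitted change among 12977 genes that reached a mean of 1 FPKM in one of the groups, Zfp352 was 279th and Zfp353-ps 557th from the most negative. The ratio of copy to gene in the A-485-treated libraries was 2.11 and 0.809, above the 0.356 and 0.388 of the DMSO libraries. The 6 erythroid markers summed to between 0.14 and 0.90 FPKM with A-485 and to between 1.76 and 4.71 FPKM with DMSO, the 6 sperm markers to between 7.92 and 8.44 against 5.59 and 7.08 FPKM, and the 7 oocyte and embryo markers to between 1728 and 1869 against 1582 and 1634 FPKM. Their part in the result was not tested.

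At late 2-cell, after A-485 had been removed at 20 hpi, both RNAs were present again at a lower level than in controls. Zfp352 reached 19.3 and 13.5 FPKM against 60.2 and 60.0 FPKM in DMSO embryos. Zfp353-ps reached 5.98 and 5.48 FPKM against 15.7 and 12.9 FPKM. The groups did not overlap for either gene. The fitted changes were -2.22 (SE 0.198) and -1.53 (SE 0.282), and both genes were called, where 16.8% of tested genes were called down-regulated. Within A-485-treated embryos, Zfp352 was higher by 3.30 on the log2 scale at late than at early 2-cell (SE 0.182) and Zfp353-ps by 1.37 (SE 0.284), although Zfp352 and its copy were lower at late than at early 2-cell in DMSO embryos. The A-485 effect at late 2-cell minus that at early 2-cell came to 4.32 (SE 0.233) for Zfp352 and 2.99 (SE 0.378) for Zfp353-ps. The early and late 2-cell libraries compared here carry titles of different forms. A difference between these sets cannot be told apart from stage, and the standard errors do not cover it. Scaled to the mitochondrially encoded genes, whose share was higher in the A-485-treated libraries, the late 2-cell changes were -3.20 and -2.50 and the median of all genes was -0.96. The 7 oocyte and embryo markers were higher too, summing to between 1398 and 1414 FPKM with A-485 and to between 738 and 795 FPKM with DMSO, as were the 7 cumulus markers at 3.94 to 4.41 against 0.90 to 1.81 FPKM, of which 2 reached 1 FPKM in both A-485 libraries and Amh was at 0. The 6 erythroid markers were lower, at 0.43 to 0.55 against 3.53 to 4.56 FPKM. The part of these markers and of the mitochondrial share in the result was not tested. Set beside the other late 2-cell DMSO group, at 36.4 and 47.4 FPKM of Zfp352 and 4.96 and 7.21 FPKM of Zfp353-ps, the A-485 libraries would still lie lower for Zfp352 but would overlap for the copy.

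RSEM's split of Zfp352 between its 2 annotated transcripts varied at this stage, also between the control libraries. The split is inferred from a length, since the shorter transcript lies wholly within the longer one. RSEM's length of Zfp352, weighted over its 2 transcripts, put the longer transcript at 42.3% and 38.2% in late 2-cell A-485 libraries and at 87.8% and 50.4% in their DMSO controls. The 2 control libraries differed from each other by more than the lower of them differed from the treated ones. In early 2-cell embryos the share was 78.5% and 78.7% with DMSO and 66.0% and 52.8% with A-485, where the counts were 53.3 and 65.0. With TSA it was 76.0% and 82.6%, and 83.7% and 78.1% in the controls, which overlapped.

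TSA moved both RNAs the other way. Late 2-cell TSA-treated embryos had 127 and 119 FPKM of Zfp352 against 36.4 and 47.4 FPKM in their DMSO controls. Zfp353-ps was at 26.2 and 21.2 FPKM against 4.96 and 7.21 FPKM. All TSA libraries lay above all controls for both genes, and Zfp352 in TSA-treated late 2-cell embryos overlapped its level in early 2-cell DMSO embryos. The fitted changes were 1.20 (SE 0.111), or 2.29-fold, for Zfp352 and 1.61 (SE 0.207), or 3.05-fold, for Zfp353-ps. Both were called, where 13.8% of tested genes were called up-regulated and 13.9% down-regulated. Scaled to total counts in place of TMM, which moved the median of all genes to 0.32, the changes were 1.55 and 1.96. The 6 erythroid markers moved with TSA, summing to 44.6 and 46.8 FPKM against 0.78 and 1.36 FPKM in the controls, with 3 of them under 1 FPKM in every library and Hbb-bs and Hbb-bt at 0. The oocyte and embryo markers summed to between 728 and 758.5 against 569.7 and 591 FPKM, the cumulus markers to between 2.29 and 2.39 against 1.28 and 1.40 FPKM, the fibroblast markers to between 1.88 and 2.64 against 0.08 and 1.49 FPKM, and the sperm markers to between 3.81 and 5.51 against 1.99 and 3.18 FPKM. The part of these markers in the result was not tested.

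**Figure D3:**
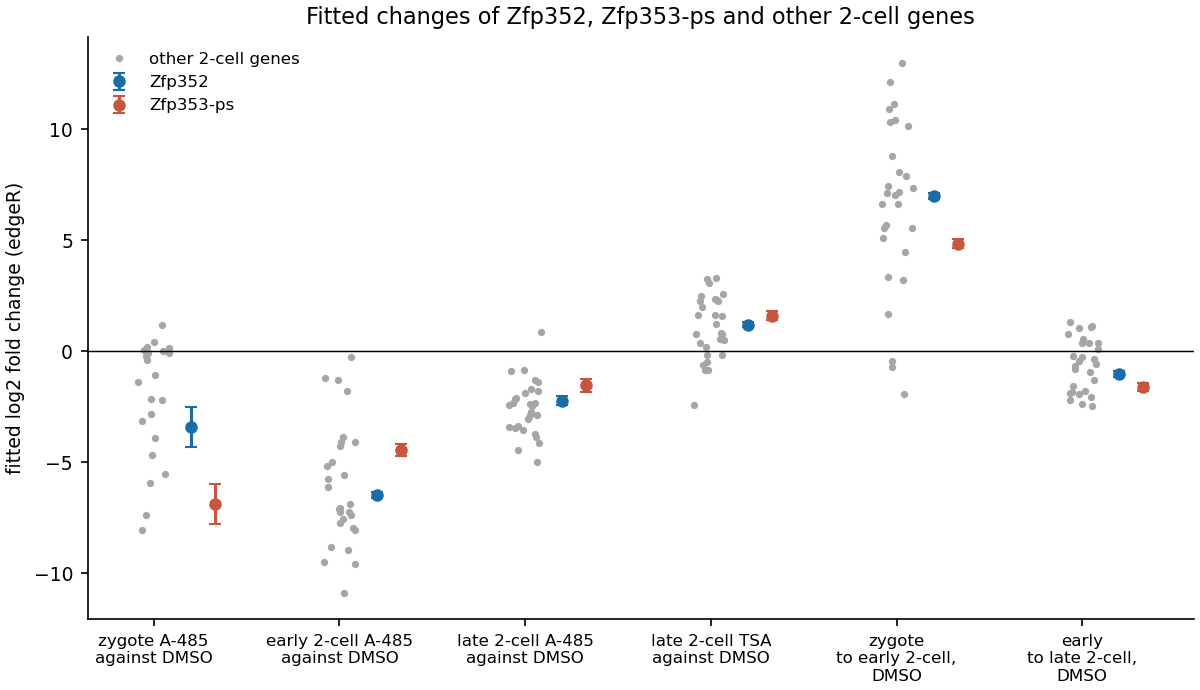
Fitted log2 fold changes (y axis) of Zfp352 (blue) and Zfp353-ps (red), with their standard errors as bars, in the 4 treatment and 2 stage comparisons (x axis), beside the other 2-cell genes tested in each (grey points, up to 28). Both genes lay below 0 in the 3 A-485 comparisons and above 0 with TSA, and inside the spread of the other 2-cell genes in each comparison.

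The ratio of copy to gene was 0.206 and 0.178 in the TSA-treated libraries and 0.136 and 0.152 in their controls. In late 2-cell A-485 libraries it was 0.309 and 0.405, against 0.261 and 0.216 in DMSO embryos. Within each of these 3 comparisons at the 2-cell stage, both treated libraries had the higher ratio, under A-485 as under TSA. In zygotes it was the other way, with a ratio of 0.118 in the A-485 library that had a value, which rests on 1 count of the copy, against 1.51 and 1.83 with DMSO.

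**Figure D4:**
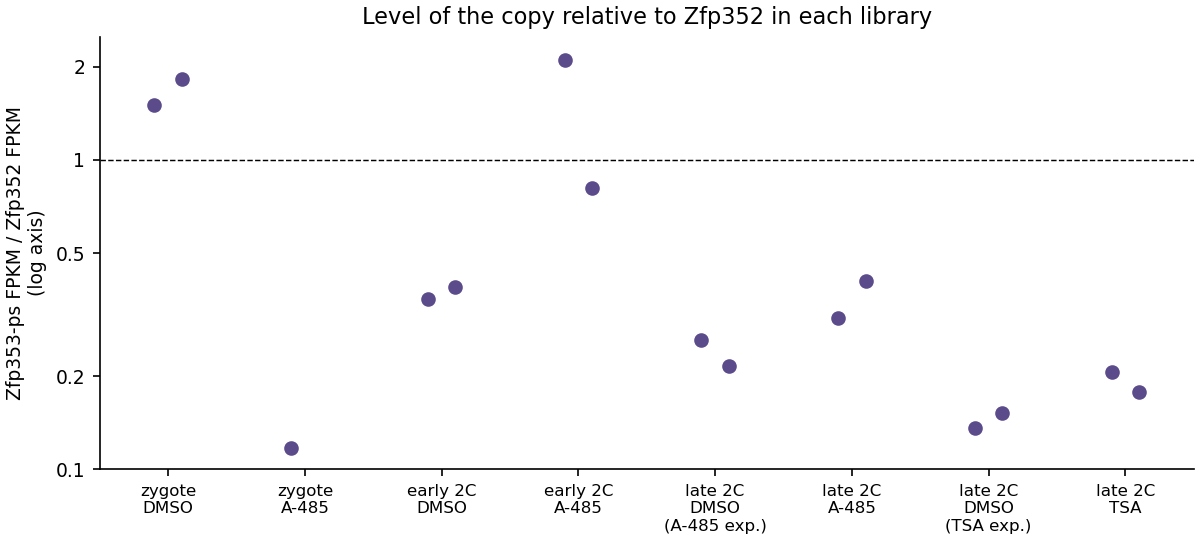
FPKM of Zfp353-ps divided by that of Zfp352 (y axis, log scale) in each RNA-seq library by group (x axis); the dashed line marks equal levels, and 1 zygote A-485 library, with both genes at 0, has no value. The ratio was above 1 in both zygote DMSO libraries and between 0.136 and 0.405 in the late 2-cell libraries.

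Zfp352 was set beside 28 other genes of the 2-cell stage, a list written with earlier results of these data known. In A-485-treated early 2-cell embryos, 27 of the 28 were called down-regulated by edgeR, beside 7.9% of all tested genes, with a median change of -6.96 against -0.01 over all genes that reached 1 FPKM in one of the groups. Zscan4d, which acts in telomere maintenance and belongs to a cluster of near-identical copies, fell from 69.9 to 0.27 FPKM (log2 fold change -8.03, edgeR adjusted p = 9.53e-09). Ubtfl1, an HMG-box gene, fell from 46.0 to 0.225 FPKM (adjusted p = 1.31e-09), and Tdpoz4, one of a family of BTB-domain genes, from 30.6 to 0.12 FPKM (adjusted p = 1.65e-07). Usp17lc, a deubiquitinase of a multicopy family, and Tcstv3, which has close paralogs too, fell 17.1-fold and 17.2-fold (adjusted p = 3.46e-09 and 4.60e-08). Reads of these families may have been divided among their copies, so single members are uncertain. Arg2, an arginase already present in the zygote at 122 FPKM, fell 2.42-fold (adjusted p = 0.000224).

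Duxf3, the annotated mouse Dux gene, was the exception and had a time course of its own. In zygotes it was at 7.23 and 6.81 FPKM with DMSO and 0.22 and 0.27 FPKM with A-485, a called decrease (log2 fold change -4.67, SE 0.288, edgeR adjusted p = 7.29e-06). Besides Duxf3, Usp17lc and Usp17ld were called down-regulated among the 22 list genes tested in zygotes, where 0.0657% of all tested genes were. At early 2-cell, where Zfp352 was near its zygotic level with A-485, Duxf3 had 4.88 and 3.57 FPKM with A-485 and 5.16 and 4.92 FPKM with DMSO, and was not called (log2 fold change -0.24, SE 0.279, adjusted p = 0.667). At late 2-cell it was at 6.04 and 9.56 FPKM with A-485 and 3.22 and 4.29 FPKM with DMSO, again not called (0.89, SE 0.366, adjusted p = 0.0771). With TSA it rose from 5.69 and 3.31 FPKM to 17.2 and 20.0 FPKM (1.65, SE 0.229, adjusted p = 0.000165). Duxf3 lies in a tandem array of copies, which makes its count uncertain.

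In late 2-cell A-485-treated embryos 24 of the 28 genes were called down-regulated, beside 16.8% of all tested genes, with a median of -2.43 against 0.02 over all genes, and Zfp352 at -2.22 was close to that median. With TSA 14 were called up-regulated and 1 down-regulated, beside 13.8% and 13.9% of all tested genes, with a median of 1.04 against -0.03. The gene called down-regulated was Ubtfl1, which fell from 88.5 to 24.8 FPKM (log2 fold change -2.41, edgeR adjusted p = 6.64e-08), so TSA did not move all 2-cell genes as it moved Zfp352. Zscan4d, Tcstv3, Usp17lc, Tdpoz4 and Arg2 were not called with TSA. From zygote to early 2-cell in DMSO embryos 25 of 28 were called up-regulated and Arg2 down-regulated, beside 11.2% of all tested genes called up-regulated. In either direction, 5259 of the 20106 tested genes were called in this step. From early to late 2-cell, 10 were called down-regulated and 4 up-regulated, the 4 being Tdpoz2, Tdpoz4, Ubtfl1 and Sp110. Of all 20326 tested genes, 8.92% were called down-regulated in this step and 5051 were called in either direction. Calls in both directions were thus common among all genes, and the 4 are not read as a group of their own. Zfp352, only just called, moved in the direction of the 10.

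Of 16 genes known to act on DUX or on 2-cell transcription, a list with the same origin, none was called by edgeR or DESeq2 in A-485-treated zygotes, and 1 had an unadjusted edgeR p under 0.05. With 0.0657% of all tested genes called down-regulated there, a count of 0 among 16 genes says nothing particular about them. At early 2-cell 5 were called down-regulated, beside 7.9% of all tested genes, with a median of -0.51 against -0.01 over all genes. These were the homeobox genes Obox3, from 52.9 to 0.41 FPKM (adjusted p = 2.46e-09), and Obox6, from 23.3 to 1.25 FPKM (adjusted p = 5.70e-07), Dppa4, a chromatin protein that helps to activate Dux, from 33.8 to 1.29 FPKM (adjusted p = 1.01e-06), the corepressor Trim28, from 47.3 to 17.7 FPKM (adjusted p = 1.89e-05), and Chaf1b, a subunit of the histone chaperone CAF-1, from 5.33 to 1.85 FPKM (adjusted p = 0.0305). At late 2-cell 12 of 16 were called down-regulated with A-485, beside 16.8% of all tested genes, with a median of -1.71 against 0.02 over all genes. They were the 5 above with Dppa2, Nr5a2, Setdb1, Chaf1a, Kdm1a, Zmym2 and Pias4.

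With TSA, 8 of the 16 were called down-regulated, beside 13.9% of all tested genes, and the other 8 were not called. The median of the list was -1.28 against -0.03 over all genes, while Zfp352 and Duxf3 were higher with TSA. Dppa2, the partner of Dppa4, fell from 90.03 to 9.75 FPKM and Dppa4 from 288 to 31.7 FPKM (edgeR adjusted p = 7.79e-09 and 5.98e-09). Obox6 fell from 107 to 8.30 FPKM and Obox3 from 107 to 34.2 FPKM (adjusted p = 4.64e-09 and 1.54e-07). The others were Nr5a2, an orphan nuclear receptor, Trim28, the histone demethylase Kdm1a and the SUMO ligase Pias4, which fell between 3.05-fold and 5.05-fold. Repressors of 2-cell genes and activators were among those that fell in both late 2-cell comparisons.

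The genes whose pattern was most like that of Zfp352 over the 16 libraries, among 9428 with a mean of at least 10 FPKM in some group, were Gm12183, Kdm4dl, Gm9048, Gm8332 and Zfp54. Pearson's r of log2(FPKM + 1) was between 0.989 and 0.995, a description over 16 libraries that share 8 groups. Zfp353-ps, at r = 0.949, was the 129th most like Zfp352, the 109th with log2(FPKM + 0.1) and the 45th with Spearman's rho. Seen from the copy, Zfp352 was the 4th most like, after Gm4027 (0.967), Gm6494 (0.957) and BB287469 (0.952) and before Gm8332 (0.949). Gm8332 was on both lists of 5. It reached 377 and 445 FPKM at early 2-cell, 0.92 and 1.35 FPKM there with A-485, and 665 and 549 FPKM with TSA.

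The neighbourhood of both genes is poor in genes. Within 500 kb of the Zfp352 start there were 5 other annotated starts, 2 of them of genes that reached a mean of 1 FPKM in any group. One of these was Gm12633, the distant relative, the only neighbour called in a treatment comparison. It had a different course: 17.2 and 15.7 FPKM in DMSO zygotes, 5.12 and 5.29 FPKM at early 2-cell and 2.71 and 2.07 FPKM at late 2-cell. A-485 was followed by a called decrease at early 2-cell, to 1.93 and 1.85 FPKM, and TSA by a called increase, from 2.05 and 1.85 to 7.5 and 7.89 FPKM. Of all tested genes, 7.9% were called down-regulated in the first of these comparisons and 13.8% up-regulated in the second. The 5 neighbours of Zfp352 gave 9 tests over the 4 treatment comparisons, and 2 had an unadjusted edgeR p under 0.05. Around Zfp353-ps there were 6 starts within 500 kb, 1 of them of a gene that reached 1 FPKM. In the 4 treatment comparisons these gave 7 tests, of which edgeR and DESeq2 called none and 1 had an unadjusted edgeR p under 0.05.

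ATAC-seq peaks at the starts were compared between the 4 lists, each made by the authors over both replicates, so that no spread between replicates is known. Positions below count bases from the start, with negative values before it. In early 2-cell DMSO embryos a peak lay across the Zfp352 start, at chr4:90218441-90218976, from -379 to 156. Its fold enrichment of 16.9 was higher than that of 99.3% of the 27693 peaks in the list, and its -log10 q was 81.3. It covered the whole repeated stretch printed above and ended 1 base beyond exon 1. Of all 55450 annotated gene starts, 14.5% had a peak within 1 kb in this list, 18.4% in the early 2-cell A-485 list, and 11.8% and 11.0% in the late 1-cell DMSO and A-485 lists. In the early 2-cell A-485 list no peak lay within 10 kb of the Zfp352 start. Neither late 1-cell list had a peak within 10 kb.

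The copy had a peak in 3 of the 4 lists. It was at chr8:42082978-42083700 in early 2-cell DMSO embryos, with a fold enrichment of 8.93 (higher than 62.7% of the list) and a -log10 q of 37.8. With A-485 it was still listed, at chr8:42082995-42083677, with a fold enrichment of 9.84 (higher than 80.9% of the 13712 peaks) and a -log10 q of 20.6. In late 1-cell DMSO embryos the fold enrichment was 6.32 (-log10 q 13.2) at chr8:42082954-42083448, and in the late 1-cell A-485 list there was no peak within 10 kb. Measured from the base that matches the Zfp352 start, the early 2-cell DMSO peak ran from -387 to 335, so it began about where the Zfp352 peak began and reached further into the gene.

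The chromatin lists and the RNA thus differed for the copy at early 2-cell: its peak was listed with A-485, while its RNA was at 2.7 and 1.23 FPKM against 43.3 and 43.6 FPKM. For Zfp352 both the peak and the RNA were lower or missing with A-485. Of the starts with a peak in the DMSO list, 23.4% had none with A-485, and the same share at late 1-cell was 25.9%. Fold enrichments were taken as deposited for each list and were not brought to a common scale, and the difference between the lists for 1 gene has no test. Of the 926 windows of 75 bases in the 1000 bases around the Zfp352 start, 39 (4.21%) occurred without a mismatch in the chromosome 8 locus. Reads from those windows may have been placed at either locus. Where in the 1000 bases these windows lie was not recorded, so they are not assigned to the repeated stretch.

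**Figure D5:**
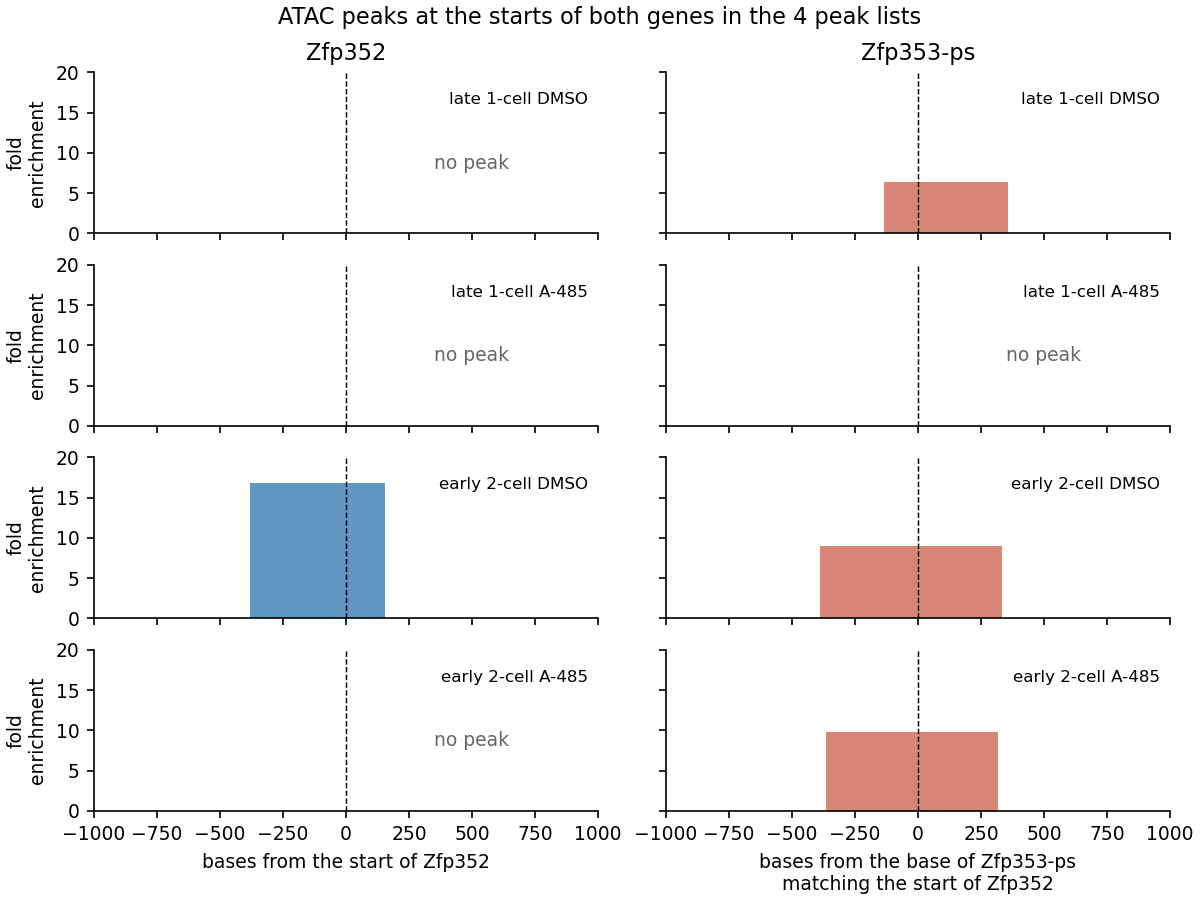
ATAC peaks (bars, width to scale) by fold enrichment (y axis) around the start of Zfp352 (left) and around the base of the copy that matches it (right), in bases from that base (x axis), for the 4 peak lists. Zfp352 had a peak in the early 2-cell DMSO list only, and the copy in all but the late 1-cell A-485 list.

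Away from the starts, 1 further peak recurred. It lay 15.0 kb before Zfp352, at chr4:90203499-90203787 in the early 2-cell DMSO list, with a fold enrichment of 10.1, and was also listed in late 1-cell DMSO (10.05) and early 2-cell A-485 embryos (8.85). A pair of peaks, 41.3 kb and 43.1 kb beyond the Zfp352 start, was listed in early 2-cell DMSO embryos with fold enrichments of 9.0 and 7.14 and in no other list. No other peak lay within 100 kb of either start.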

How the data were processed

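The members and the lists of genes were chosen with earlier results of these data known. Per the labels and methods, the authors trimmed reads with Trimmomatic 0.39, mapped them to GRCm38 with STAR 2.7.8a and deposited RSEM 1.3.1 expected counts, which are not normalized, with FPKM values, the weighted length and the posterior standard deviation of the count. The deposited ATAC lists came from the ENCODE pipeline, 1 list over both replicates, each peak with a score, a fold enrichment and a −log10 q; lines of the same position were joined. Of 55385 genes, 55144 were matched to GENCODE M21.

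Expected counts were rounded and fitted over all genes with the quasi-likelihood test of edgeR 4.0.16 (R 4.3.3, TMM, Benjamini-Hochberg), in the 4 libraries of a comparison, over genes with at least 10 counts summed. Genes were called at an adjusted p under 0.05 with a 2-fold change and a mean FPKM of 1 in one of the groups. Standard errors were the log2 fold change, without its sign, divided by the square root of F. Sequences were aligned with blastn 2.17.0. Counts between replicates differed by a chi-square per degree of freedom of 8.99 to 18.0 over genes with at least 10 counts summed. Taken over all these genes, replicates thus differed by more than counting error. This average does not describe the members where they had few counts.

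Genes named were both members, those sharing a 75-base window with them, the 5 most like each, Duxf3, Zscan4d, Tcstv3, Usp17lc, Tdpoz4, Ubtfl1, Arg2 and list genes called against most of the 2-cell list, called genes of the second list, and called neighbours within 500 kb; Gm12633 as a relative, and Usp17ld, were named after their values were seen. Alternatives were DESeq2 1.42.0, limma 3.58.1 on log2(FPKM + 1), other scalings, no filter, a joint fit of the 16 libraries, a block for the replicate number, each library left out, and both copies added. H3K27ac samples were not analysed here.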

Additional observations from a re-analysis of the deposited data

How the results depend on the processing

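Over 144 refits of the 12 member changes, 139 kept their direction and their side of the thresholds, 4 lost a call and 1 gained one, and none reversed. Zfp352 in zygotes passed the thresholds when both copies were added (-4.45). Zfp353-ps in zygotes lost its call with limma on log2(FPKM + 1) (-1.35), as did Zfp352 from early to late 2-cell (-0.95), where values without single libraries ran from -1.14 to -0.87. A pseudocount of 1 shrinks changes of low genes by construction. The 2-cell genes called in A-485-treated zygotes numbered 3, but 5 without a filter on low counts and 5 with the replicate number as a block, and 3 to 4 without single libraries. Of the 5 genes most like Zfp352, 1 stayed among the 5 with log2(FPKM + 0.1) and 2 with Spearman's rho, and of the 5 most like Zfp353-ps, 3 and 0. The share of the copy's windows found in Zfp352 was 4.00% at 75 bases, 8.74% at 50 and 24.4% at 30. Peak counts were the same within 2.5 or 10 kb, at q under 1e-5, and, chosen after seeing the data, from the matching base of the copy.

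The labels give groups the same replicate numbers but no pairing, and the replicate differences of the groups correlated at between -0.0393 and 0.0975, so the numbers were not taken as pairs. The block raised the calls over all genes in zygotes from 13 to 39. It changed no call of either member, with Zfp352 in zygotes at -3.79 and Zfp353-ps at -6.92. Low counts limit the zygote A-485 values although these libraries were the deepest, since the library of 32585987 counts held no read of either gene.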
